A study of Urocitellus parryii with 44 samples.

Results

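The thermogenic regulators of brown fat described here are the genes Ppargc1a, Ppargc1b, Dio2, Esrrg, Bmp8b, Prdm16, Cidea, Elovl3, Ebf2 and Letmd1. They were chosen by name, and every probe that carried 1 of these symbols alone was taken, which gave 14 of the 38400 probes on the membranes. These 14 probes cover 8 of the 10 genes, out of 11626 genes named by a single symbol. Ebf2 and Letmd1 were not analysed here. For 7 of the 8 genes the RefSeq annotation of the squirrel lists a gene of the same symbol, Bmp8b being the other.

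Brown adipose tissue RNA came from arctic ground squirrels (Urocitellus parryii), 3 animals active in summer and taken in August, and 5 in winter torpor. Each animal's total RNA was labelled with radioactive phosphorus and hybridised to 4 membranes of mouse cDNA probes, MA07, MA08, MA10 and MA11, and each membrane was measured in 11 columns because 3 RNA extracts, from the first and second summer animals and torpid animal 5, had been split into duplicates. Season and activity state differed together between the groups, so their parts cannot be told apart. The sources used here give no strain, sex or age. The values are spot intensities divided by the median of their column, so that 1 is the brightness of the middle probe. Squirrel RNA was read with mouse probes, a symbol names the mouse gene, and levels of different probes are not compared.

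Brown adipocytes burn fat in their mitochondria to make heat. Cold reaches them through noradrenaline, whose cyclic AMP signal raises the coactivator PGC-1alpha (Ppargc1a) and the deiodinase Dio2, which makes active thyroid hormone inside the cell. PGC-1alpha works through nuclear receptors, among them the oestrogen-related receptors to which Esrrg belongs, to raise mitochondrial and thermogenic genes. Bmp8b is a secreted factor that makes the cells more responsive to noradrenaline, Prdm16 is a transcriptional regulator that sets the brown cell's identity, and Cidea and Elovl3 act on the lipid droplet and on the making of very long chain fatty acids.

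No member passed the test between torpor and summer. Esrrg was the nearest, with 1 of its 3 probes 2.12-fold higher in torpor, and Prdm16 also had a higher mean in torpor. Ppargc1a, Dio2, Bmp8b, Elovl3 and Cidea had lower means in torpor, by 0.70 at most on the log2 scale as a mean over each gene's probes, and Ppargc1b differed by only -0.11. Of the 13 member probes that could be tested, 9 had a difference below 0 and 4 above, with a median of -0.31, while over all 37848 tested probes 50.0% were below 0 and the median was 0.00. By limma with Benjamini-Hochberg adjustment over all probes, 0 of the 13 were called at an adjusted p of 0.05, where 0.309% of all tested probes were (117 probes). At an unadjusted p under 0.05 there was 1 member probe, and 11.6% of all probes were below that level. The animals of the groups did not overlap for 1 of the 13, which was higher in torpor, against 8.50% of all probes (4.37% higher and 4.13% lower in torpor). The smallest difference called on any probe was 1.13, which is larger than all 13 member differences. A p that misses the threshold does not show that a member was the same in both groups, and the 95% intervals below give the differences that these arrays allow.

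**Figure D1:**
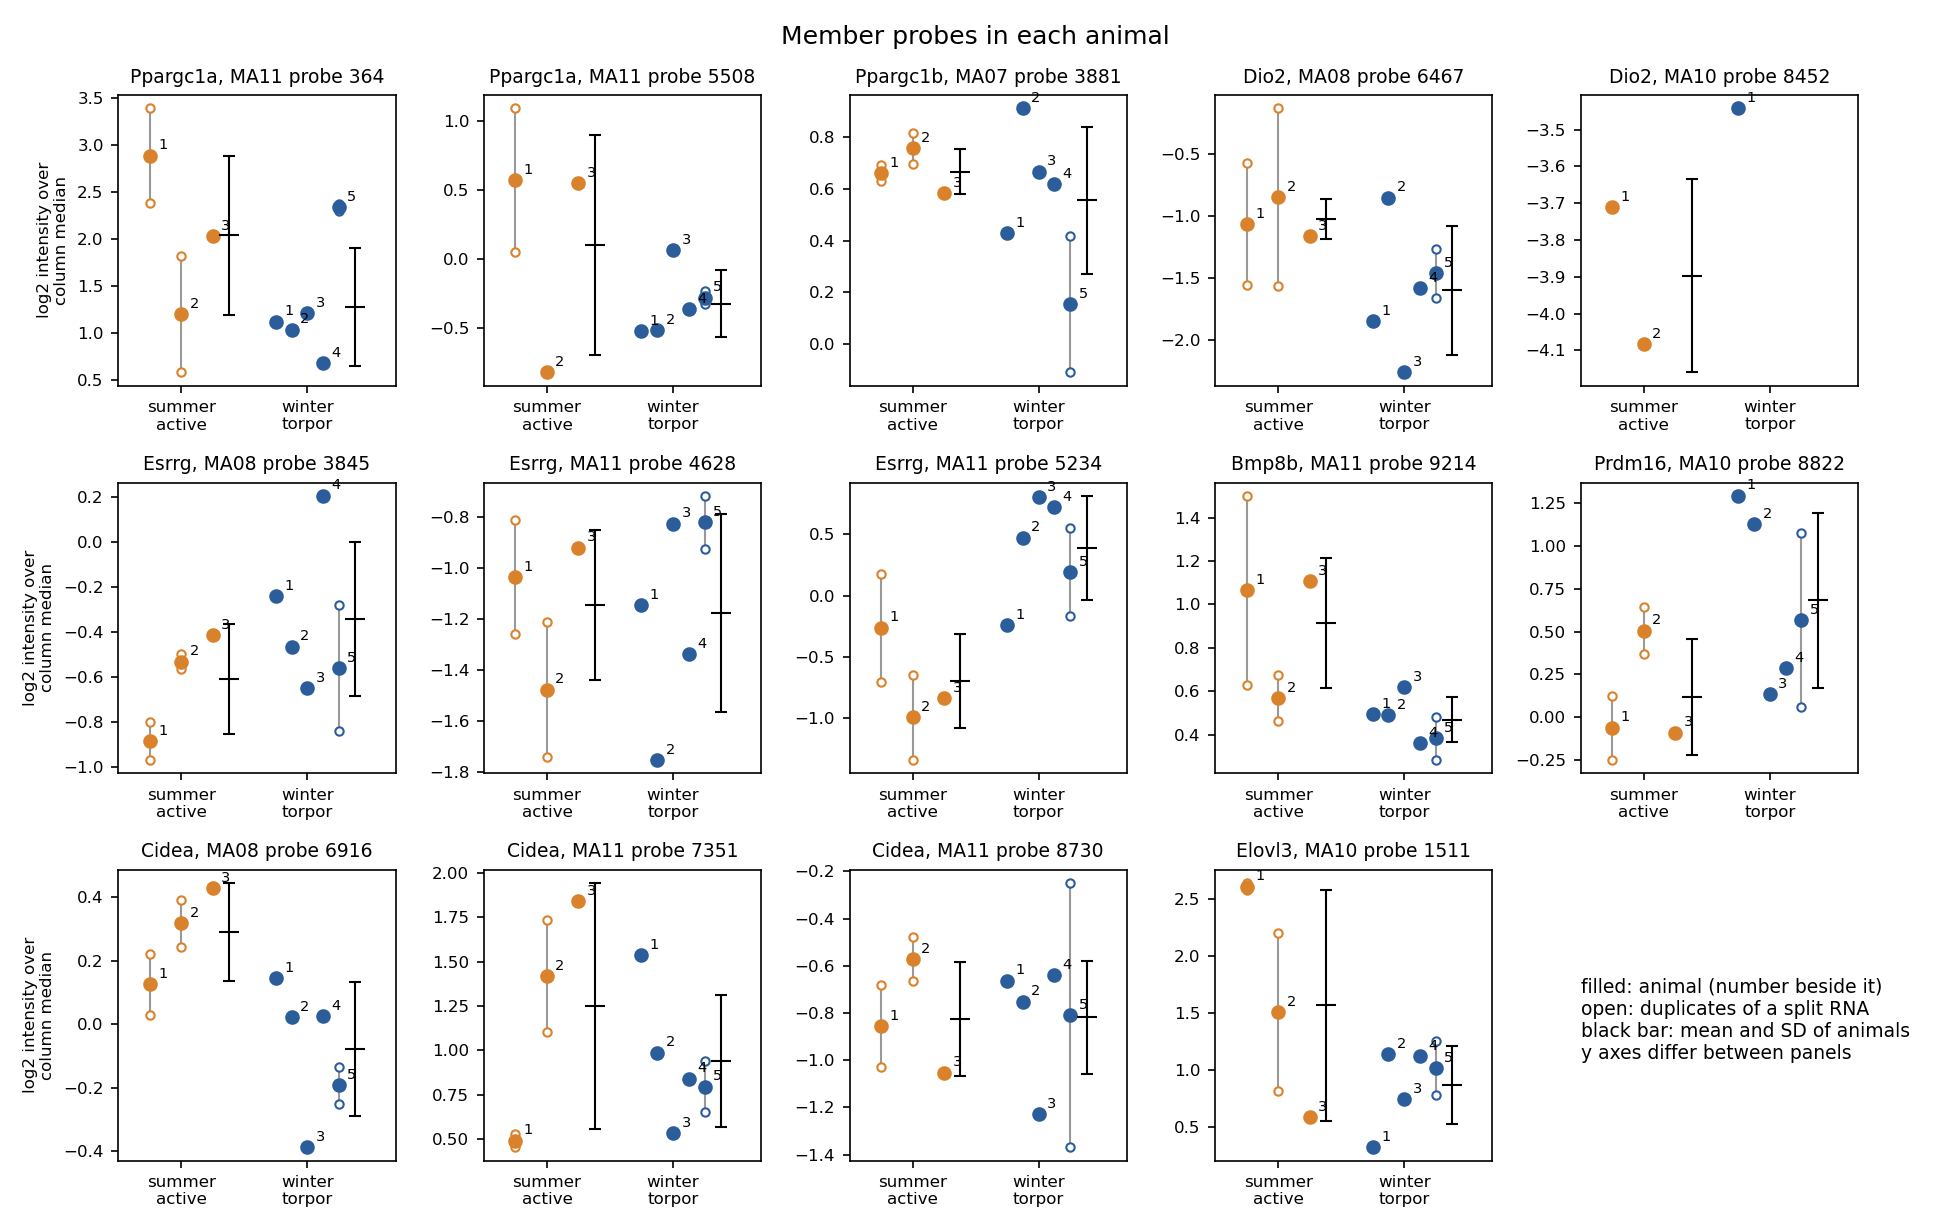
Intensity over the column median on a log2 scale for the 14 member probes in each animal. Filled points are animals (orange summer, blue torpor, with the animal's number), open points joined by a line are the duplicates of a split RNA, and black bars are the mean and SD of the animals; y axes differ between panels. Only the Esrrg probe 5234 has all 5 torpid animals above all 3 summer animals, by a narrow margin, and the Dio2 probe of MA10 has values in 3 animals only.

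Bmp8b, a secreted member of the bone morphogenetic protein family, was measured by 1 probe (MA11, 9214). The squirrel annotation lists no gene of this symbol, and which squirrel transcript the probe reads was not tested. Its intensity was 2.09, 1.48 and 2.15 in summer animals 1, 2 and 3. In torpid animals 1 to 5 it was 1.41, 1.41, 1.53, 1.28 and 1.30. Summer animals 1 and 3 lay above every torpid animal, and summer animal 2 lay inside the torpid range. On the log2 scale the mean was 0.47 ± 0.10 (SD, n = 5) in torpor and 0.91 ± 0.30 (SD, n = 3) in summer. The difference was -0.44 ± 0.22 (SE), with a 95% interval from -0.93 to 0.04 and a limma adjusted p of 0.471. An exact two-sided permutation test over the 56 divisions of the 8 animals gave an unadjusted p of 0.0357, where the smallest possible is 0.0179. This p is 1 of 13, for the 13 member probes. Bmp8b varied little among torpid animals, and the spread lay in summer, where the duplicates of summer animal 1 read 1.54 and 2.83. The difference of Bmp8b kept its sign in all 20 alternative settings, from -0.62 without summer animal 2 to -0.31 with only the first duplicates.

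Dio2 was measured on MA08 (probe 6467) and on MA10 (probe 8452), both dim. The MA08 probe lay at the 7.94th percentile of signal on its membrane. Its intensity was 0.479, 0.556 and 0.447 in the summer animals and 0.278, 0.554, 0.209, 0.335 and 0.364 in torpid animals 1 to 5. All summer values were above those of 4 torpid animals, and torpid animal 2 was level with the highest summer animal. The log2 means were -1.60 ± 0.52 (SD, n = 5) and -1.02 ± 0.16 (SD, n = 3), a difference of -0.58 ± 0.29 (SE; 95% interval -1.21 to 0.06; limma adjusted p = 0.473). The SD between duplicates of one RNA was larger than this difference, at 0.73. The duplicates of summer animal 1 read 0.341 and 0.673, and those of summer animal 2 read 0.339 and 0.914. With the first duplicates alone the Dio2 difference was -0.13, with the second alone it was -1.02, and with a floor at the 10th percentile of each column it was -0.25. The MA10 probe was among the dimmest of its membrane (0.449th percentile) and was empty in 5 of 8 animals, so it was not tested. The 3 values it had were 0.0764 and 0.0590 in summer animals 1 and 2 and 0.0920 in torpid animal 1.

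Ppargc1a, the gene of PGC-1alpha, was measured by a pair of probes on MA11. The brighter one (probe 364, 87.9th percentile) read 7.40, 2.30 and 4.08 in the summer animals. In torpid animals 1 to 5 it read 2.18, 2.05, 2.32, 1.60 and 5.05. Torpid animals 1 to 4 lay close together near summer animal 2, while torpid animal 5 lay between summer animals 1 and 3. The log2 means were 1.28 ± 0.63 (SD, n = 5) in torpor and 2.04 ± 0.84 (SD, n = 3) in summer, and the difference was -0.76 ± 0.41 (SE; 95% interval -1.66 to 0.14; limma adjusted p = 0.509). This was the most negative difference of any member probe.

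The other Ppargc1a probe (5508) read 1.48, 0.566 and 1.46 in summer and 0.696, 0.699, 1.05, 0.778 and 0.824 in torpor. Summer animals 1 and 3 were above all torpid animals, and summer animal 2 was below them all. Its value for summer animal 2 rests on 1 column, since the other duplicate was empty. The difference was -0.42 ± 0.32 (SE; limma adjusted p = 0.647), and the difference of this probe from probe 364 was itself within the spread of the animals (exact two-sided permutation p = 0.429). Over both probes, Ppargc1a gave -0.59 ± 0.33 (SE), with a 95% interval from -1.34 to 0.15. The value turned on single animals: probe 364 gave -0.34 without summer animal 1, -1.18 without summer animal 2 and -1.03 without torpid animal 5. Probe 5508 gave -0.19, -0.88 and -0.20 without summer animals 1, 2 and 3. The duplicates of summer animal 1 on probe 364 read 10.5 and 5.22, and those of summer animal 2 read 3.53 and 1.50.

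Ppargc1b, the gene of the related coactivator PGC-1beta, read 1.58, 1.69 and 1.50 in summer and 1.35, 1.88, 1.59, 1.54 and 1.11 in torpor (MA07, probe 3881). The summer animals lay inside the torpid range. The difference was -0.11 ± 0.20 (SE), with a 95% interval from -0.55 to 0.33 (limma adjusted p = 0.871), one of the narrower intervals among the members.

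Esrrg, an orphan nuclear receptor that binds PGC-1alpha, had 3 probes of 3 different clones. Probe 5234 of MA11 read 0.834, 0.503 and 0.560 in summer and 0.846, 1.39, 1.75, 1.65 and 1.14 in torpor. Every torpid animal was above every summer animal, but torpid animal 1 exceeded summer animal 1 only in the second decimal, and the second duplicate of summer animal 1, at 1.13, was above the value of torpid animal 1. The log2 means were 0.39 ± 0.42 (SD, n = 5) and -0.70 ± 0.38 (SD, n = 3). The difference was 1.09 ± 0.29 (SE), with a 95% interval from 0.45 to 1.72 and a limma adjusted p of 0.170. By the size of its difference this probe stood at the 96.3rd percentile of all tested probes. In 20 alternative settings the value ran from 0.75 with the second duplicates to 1.42 with the first, with adjusted p from 0.059 to 0.491 by limma.

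The other 2 Esrrg probes had smaller differences. Probe 3845 of MA08 read 0.542, 0.691 and 0.751 in summer and 0.845, 0.724, 0.638, 1.15 and 0.678 in torpor, a difference of 0.27 ± 0.24 (SE; 95% interval -0.26 to 0.79). Probe 4628 of MA11 read 0.488, 0.359 and 0.528 in summer and 0.451, 0.297, 0.564, 0.396 and 0.566 in torpor, a difference of -0.03 ± 0.27 (SE; 95% interval -0.62 to 0.56). The groups overlapped on both. Pairs of probes of one gene were compared after their values were seen, 7 pairs in all. The difference of probe 4628 minus that of probe 5234 was -1.12, with an exact two-sided permutation p of 0.0357, or 0.125 after adjustment over the 7 pairs. That of probe 3845 minus that of probe 5234 was -0.82, with an exact permutation p of 0.125 (0.292 adjusted). The log2 values of probes 4628 and 5234 had a Pearson r of 0.00 over the 8 animals, which share their RNA and membrane. As a mean over its 3 probes Esrrg gave 0.44 ± 0.17 (SE), with a 95% interval from 0.06 to 0.82. This mean contains probe 5234, so it is no separate support for that probe, and the groups overlapped on the other 2. In the mean the torpid animals were all above the summer animals (exact permutation p = 0.0357). Limma fitted over 11553 genes gave an adjusted p of 0.381. In that fit 0 of the 8 member genes were called, beside 0.147% of all genes (0.113% higher and 0.0346% lower in torpor), and 2, Esrrg and Bmp8b, had an unadjusted p under 0.05, beside 11.5% of all genes. Bmp8b has 1 probe, so its gene value holds the same measurements as probe 9214. In the fit over probes that probe had an unadjusted limma p of 0.069. Of the 8 genes 6 had a mean difference below 0, beside 49.6% of all genes. Esrrg was the member gene of the 8 whose groups did not overlap, and 7.92% of all genes had groups that did not.

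**Figure D2:**
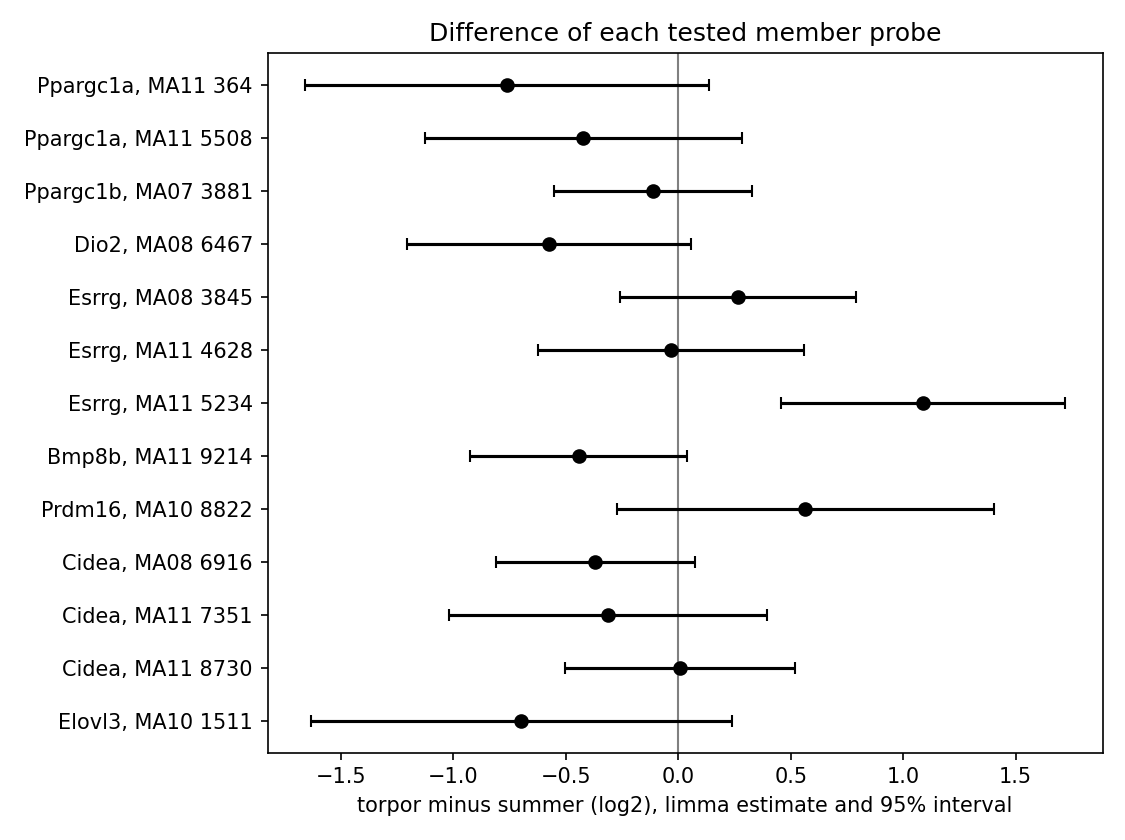
Difference between torpor and summer on the log2 scale for the 13 tested member probes, as limma's estimate (point) with its 95% interval (bar). Only the interval of Esrrg probe 5234, from 0.45 to 1.72, lies wholly on one side of 0; none of the 13 passed an adjusted p of 0.05.

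Prdm16 was measured on MA10 (probe 8822), where it read 0.958, 1.42 and 0.939 in summer and 2.45, 2.19, 1.10, 1.22 and 1.48 in torpor. Torpid animals 1 and 2 were the highest, and summer animal 2 lay among the other torpid animals. The difference was 0.56 ± 0.40 (SE; 95% interval -0.27 to 1.40; limma adjusted p = 0.612), and it stayed between 0.41 and 0.76 with 1 animal left out. The duplicates of torpid animal 5 read 2.11 and 1.04, which span most of the range of the torpid animals.

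Elovl3, the elongase that brown fat raises strongly in the cold, showed the widest spread in summer. On MA10 (probe 1511) it read 6.08, 2.84 and 1.50 in summer animals 1, 2 and 3, and 1.25, 2.20, 1.68, 2.18 and 2.02 in torpor. Summer animal 1 lay far above all others, while summer animal 3 lay inside the torpid range. The log2 means were 0.87 ± 0.34 (SD, n = 5) and 1.57 ± 1.01 (SD, n = 3), and the difference was -0.70 ± 0.44 (SE; 95% interval -1.63 to 0.24; limma adjusted p = 0.570). The difference was -0.18 without summer animal 1 and -1.19 without summer animal 3. Both duplicates of summer animal 1 were high, at 6.21 and 5.96, whereas those of summer animal 2 read 4.59 and 1.76.

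Cidea, a protein of the lipid droplet surface that marks brown adipocytes, had 3 probes, of which those on MA08 (6916) and MA11 (7351) come from the same clone. Probe 6916 read 1.09, 1.25 and 1.35 in summer and 1.11, 1.02, 0.765, 1.02 and 0.876 in torpor. Summer animals 2 and 3 were above all torpid animals, and summer animal 1 was just below torpid animal 1. The difference was -0.37 ± 0.20 (SE; 95% interval -0.81 to 0.07; limma adjusted p = 0.515). Its duplicates agreed best of all member probes, with an SD of 0.11.

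Probe 7351 read 1.41, 2.67 and 3.59 in summer and 2.90, 1.98, 1.45, 1.79 and 1.74 in torpor, so that summer animal 1 was the lowest of all 8 animals and every torpid animal lay inside the summer range. Its difference was -0.31 ± 0.32 (SE; limma adjusted p = 0.750), and it was -0.69 without summer animal 1 and -0.02 without summer animal 3. The log2 values of the 2 probes of this clone, on different membranes, had a Pearson r of 0.77 over the 8 animals. The third Cidea probe, 8730 of another clone on MA11, read 0.553, 0.673 and 0.482 in summer and 0.632, 0.594, 0.426, 0.642 and 0.571 in torpor, a difference of 0.01 ± 0.23 (SE; 95% interval -0.50 to 0.52). Probe 6916 differed from probe 8730 in its change by -0.38, with an exact permutation p of 0.0179, the smallest these animals can give, and 0.125 after adjustment over the 7 pairs. Over its 3 probes Cidea gave -0.22 ± 0.20 (SE).

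The error of measurement was as large as the spread of animals for several members. The SD between duplicates of one RNA, over the 3 split RNAs (2 for Ppargc1a probe 5508), ran from 0.11 for Cidea probe 6916 to 0.73 for Dio2 on the log2 scale. Its median over all tested probes was 0.38, and 7 of the 13 member probes were above that. The median differed between membranes, at 0.645 on MA10 and 0.36 on MA11. Elovl3 (0.60) and Prdm16 (0.45), both on MA10, were below the median of their membrane. For 5 of the 13, among them Dio2, Bmp8b and Esrrg probe 5234, the SD between duplicates exceeded the SD between animals within groups. Most animals were measured once on each membrane, so this error is part of their values. The SD takes no account of sign. The second duplicate of Dio2 differed from the first by 0.98 and 1.43 in summer animals 1 and 2, and by -0.39 in torpid animal 5. For Bmp8b the same summer animals differed in sign, at 0.87 and -0.21. Whether first and second columns differ by a shared shift was not tested.

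**Figure D3:**
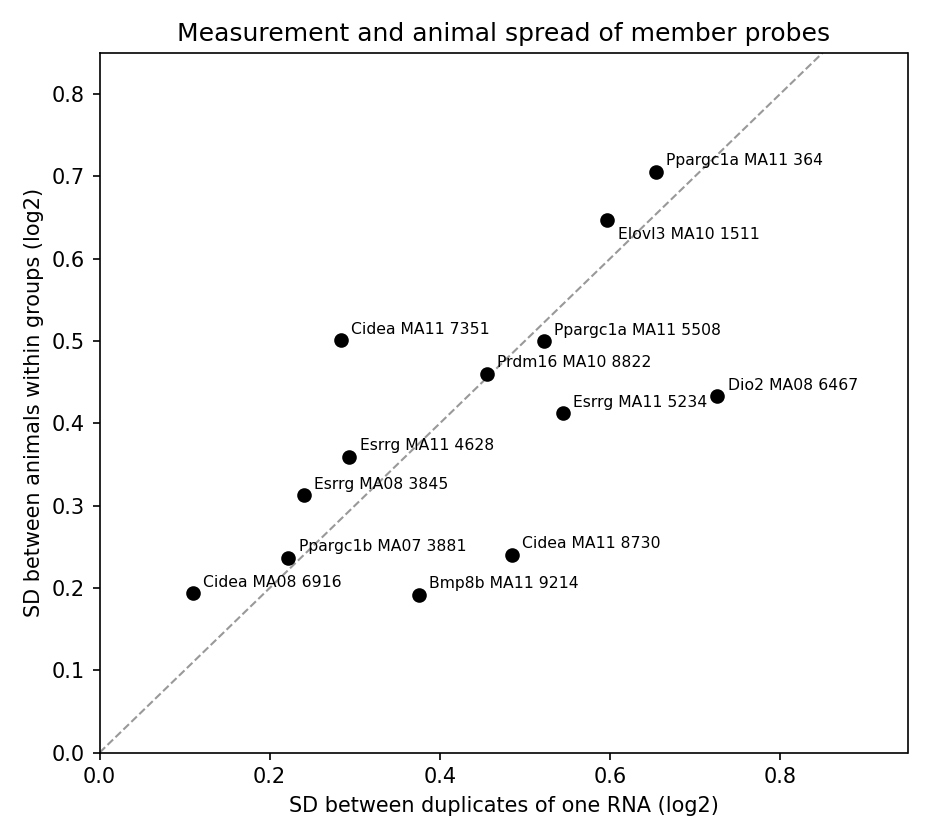
SD between duplicates of one RNA (x, log2) against SD between animals within groups (y, log2) for the 13 tested member probes, with the line of equality dashed. Probes right of the line, led by Dio2 at 0.73, varied more between duplicates than between animals; Ppargc1a probe 364 and Elovl3 were high on both.

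Leaving out single animals moved the Ppargc1a, Elovl3 and Cidea probe 7351 differences most, in each case through summer animals. With 3 summer and 5 torpid animals, each summer animal weighs more in the mean of its group. No member probe was called in any of the 8 fits that left out 1 animal.

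**Figure D4:**
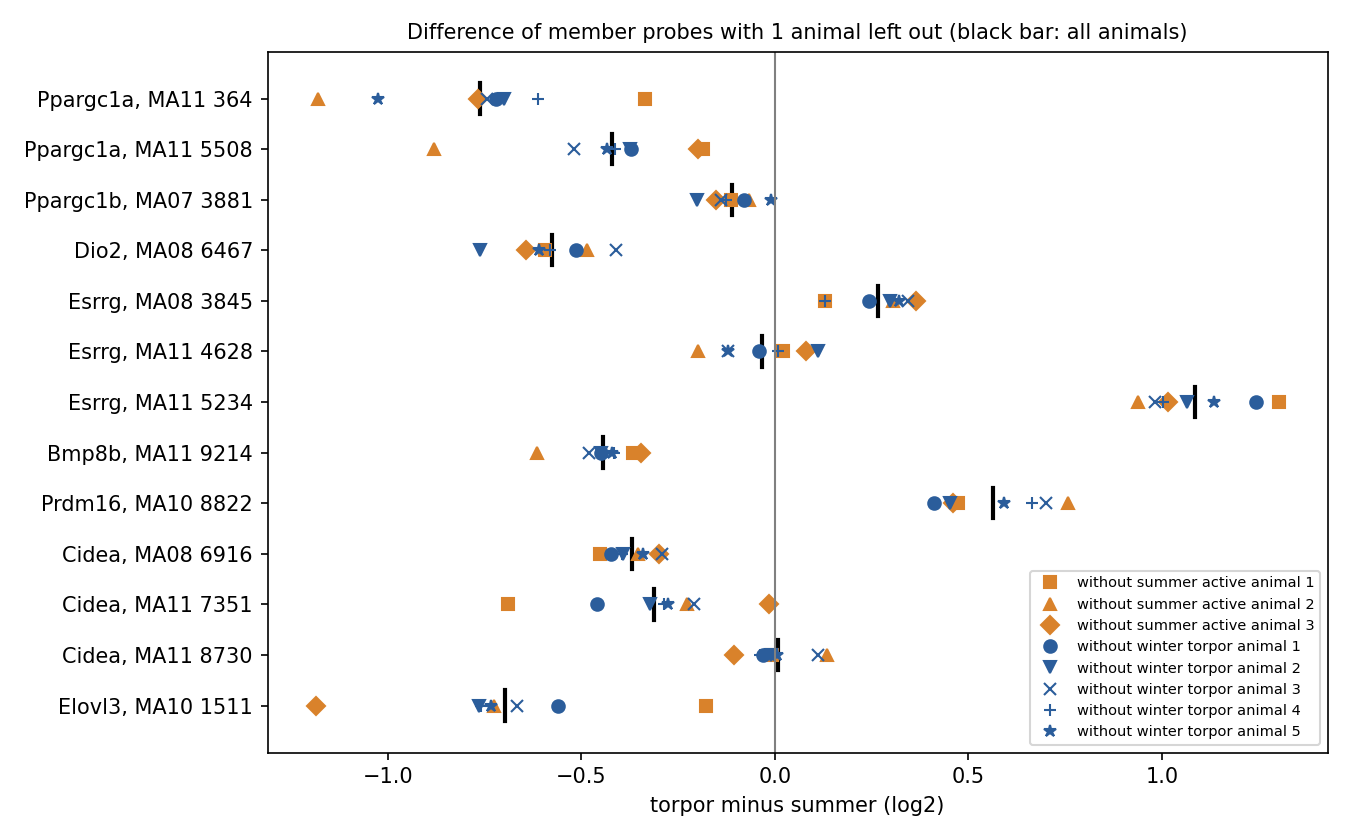
Difference between torpor and summer on the log2 scale for each tested member probe with 1 animal left out in turn (orange without a summer animal, blue without a torpid animal), beside the value with all animals (black bar). Elovl3 ran from -1.19 to -0.18 and Ppargc1a probe 364 from -1.18 to -0.34, while Esrrg probe 5234 stayed between 0.94 and 1.30.

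The genes whose brightest probe followed a member's brightest probe most closely were sought among 11027 genes by Pearson r of log2 values over the 8 animals, which share their RNA and in part their membranes. These r describe the animals and carry no p. The 3 nearest to Esrrg were Lamp2, Tgm2 and Alkbh3 (Pearson r of 0.97, 0.97 and 0.95), and Alkbh3 was 1.90 higher in torpor on the log2 scale, against 0.49 and 0.39 for Lamp2 and Tgm2. Bmp8b was followed by Slc30a10, Plppr5 and Ube2d2a (0.98, 0.95 and 0.95). For Ppargc1a they were Cyp46a1, Prorp and Zfp398 (each 0.92), for Dio2 Ttc9c, Cenpl and Lingo3 (0.94, 0.94 and 0.93) and for Elovl3 Cpq, Baz1a and Arhgap17 (0.97, 0.95 and 0.94). Ppargc1b went with Med28, Laptm5 and Sntb1 (0.97, 0.94 and 0.93), Cidea with Washc4, Kcnj9 and Map7d1 (0.97, 0.97 and 0.96), and Prdm16 with AI597479, Aqp1 and 2900026A02Rik (0.97, 0.96 and 0.96). No member was among the 3 nearest of another. Among the members' own brightest probes, Ppargc1a and Bmp8b had an r of 0.65, and Esrrg and Cidea had -0.70.

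The pathway around the members was described with 7 lists of 165 genes, of which 122 were measured. Of their 298 tested probes 1 rose and 0 fell, beside 0.259% and 0.0502% of all tested probes, and of the 122 genes 0 passed as a mean over probes. The median difference was -0.07 by each gene's brightest probe, against 0.03 over all 11553 genes. Genes that carry the cold signal to the nucleus held the called probe, of Adcy3, an adenylyl cyclase, an enzyme that makes cyclic AMP. Adcy6, another adenylyl cyclase of this list, gave 0.005 ± 0.35 (SE). On MA08 (probe 5599) Adcy3 read 3.12, 1.88 and 4.54 in summer and 12.8, 8.22, 10.1, 8.51 and 8.89 in torpor. It was 3.21-fold higher in torpor, with every torpid animal above every summer animal (difference 1.68 ± 0.28, SE; limma adjusted p = 0.040). Its other probe, on MA07, gave 1.75 ± 0.35 (adjusted p = 0.086). The call was lost with cyclic loess (adjusted p = 0.13), the floor (0.060), the second duplicates alone (0.15), and without summer animal 2 (0.056) or any 1 torpid animal (0.068 to 0.098 by limma). In the same list Prkar2b, a regulatory subunit of protein kinase A, had 1.52 ± 0.44 and the kinase gene Mapk14 -0.75 ± 0.30, neither of them called, and the 4 Mapk14 probes ran from -0.75 to 0.05. The list's 13 measured genes had a median of 0.22.

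None of the thyroid hormone genes passed, with 10 of 16 measured and a median of -0.25. Sephs2, which makes the selenium donor needed for deiodinases, stood at 0.64 ± 0.27, Secisbp2, which decodes the selenocysteine of proteins such as Dio2, at 0.36 ± 0.23, and the hormone receptor genes Thrb and Thra at -0.37 ± 0.24 and -0.42 ± 0.52. Other probes of Secisbp2 and Thra differed in sign, running from -0.40 to 0.50 and from -0.78 to 0.13. For partners of PGC-1, 29 of 36 genes were measured, 11 above 0 and 18 below, with a median of -0.09. Sirt3, Ncoa6 and Mybbp1a had the smallest p, at -1.04 ± 0.31, -0.87 ± 0.30 and -1.68 ± 0.61, but their probes differed in sign. As means over probes they gave 0.03, -0.37 and -0.43, and the median of the 4 Sirt3 probes was 0.36. Pparg, the master regulator of fat cells, gave -0.20 ± 0.30, Ppara -0.02 ± 0.27 (its other probe -0.93), Tfam, which maintains mitochondrial DNA, -0.09 ± 0.21, and the corepressor gene Nrip1 -0.87 ± 0.43. The 3 Nrip1 probes ran from -0.87 to 0.50, with a mean of -0.15. The BMP list had 23 of 28 measured and a median of -0.10. Its genes of smallest p were Smad7, an inhibitor of the pathway (-1.56 ± 0.32, limma adjusted p = 0.073), Chrd, a BMP antagonist (0.98 ± 0.33, with probes from -0.16 to 0.98), and the target gene Id3 (-0.88 ± 0.32). The 3 Smad7 probes ran from -1.56 to -0.09, with a mean of -0.92. The 3 Id3 probes ran from -0.88 to -0.11, with a mean of -0.47. The other Id genes differed in sign, Id1 at -0.33 ± 0.27, Id2 at 0.86 ± 0.33 and Id4 at 0.31 ± 0.38. The 5 Id2 probes ran from 0.08 to 1.54.

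Brown adipocyte fate genes, 23 of 28 measured, had a median of -0.20, and Trim28, Lhx8 and Prdm2 led at -0.84 ± 0.28, -0.58 ± 0.23 and -0.55 ± 0.22. The 5 Trim28 probes ran from -0.84 to -0.24 and the 4 Prdm2 probes from -0.70 to 0.35. Thermogenic effectors, 17 of 29 measured, had a median of -0.23. Gpd2 (mitochondrial glycerol phosphate dehydrogenase), Fabp3 and Pank1 had the smallest p there, at 1.62 ± 0.33, 1.99 ± 0.50 and 1.22 ± 0.34, and none passed. The 5 Gpd2 probes ran from -0.19 to 1.62, and the 2 Fabp3 probes were at 0.28 and 1.99. Ucp1, Adrb3 and Esrra were not analysed here. The relatives of the members, other CIDE, elongase and LETM genes, had 7 of 10 measured and a median of 0.22, with Letm1 at 0.40 ± 0.19, Elovl1 at 0.38 ± 0.24 and Elovl6 at 0.37 ± 0.41. Their probes differed in sign, from -0.30 to 0.40 for Letm1, from -0.23 to 0.38 for Elovl1 and from -0.19 to 0.73 for Elovl6, and the means over probes were -0.01, 0.08 and 0.29.

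**Figure D5:**
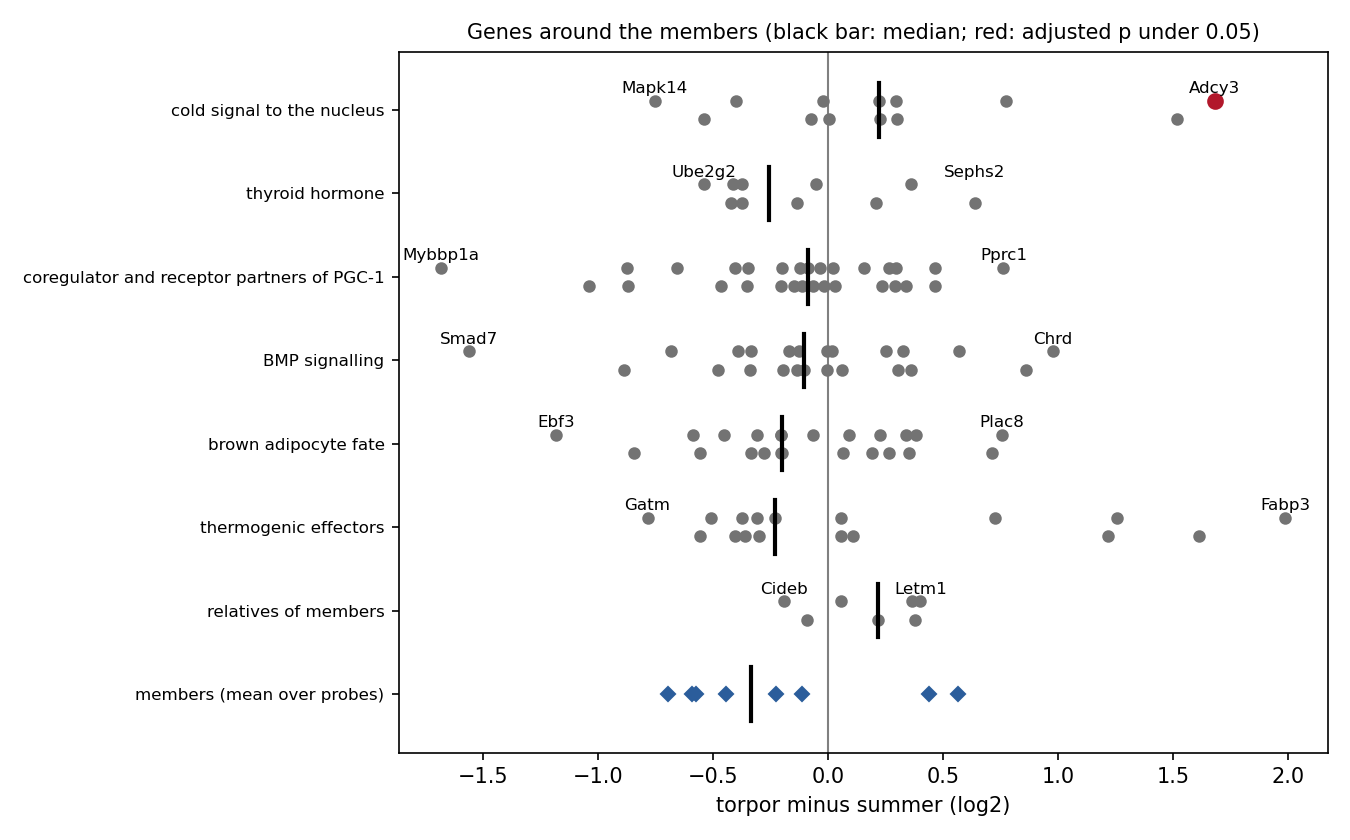
Difference between torpor and summer (log2) for the measured genes of the 7 lists around the members, by the brightest probe of each gene (grey; red where that probe's adjusted p was under 0.05), and for the 8 member genes as means over their probes (blue). Black bars are medians; the red point is Adcy3 at 1.68, called on this probe and not as a mean over its probes, and the members run from -0.70 to 0.56.

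In bulk tissue a smaller number of cells of a type and less RNA per cell cannot be told apart. Markers of the tissue's cell types were described by the brightest probe of each gene, and no gene of these lists passed the threshold. Of 13 brown adipocyte genes 8 were measured, but 6 of these are Esrrg, Dio2, Ppargc1a, Elovl3, Prdm16 and Cidea themselves, so this list is no separate measure of brown adipocytes. The other 2, the transcription factor genes Lhx8 and Zic1, gave -0.58 ± 0.23 and 0.09 ± 0.35 (SE).

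Intensities summed over a list follow its brightest probes and are not levels of a cell type. The 6 general fat cell markers (4 above 0, 2 below, median 0.27) summed to 31.5 to 45.5 in torpor and 12.1 to 26.9 in summer, led by Dgat2, which makes triglyceride, at 1.86 ± 0.37 (limma adjusted p = 0.071), while Lipe gave -0.78 ± 0.36 and Pparg -0.20 ± 0.30. The 8 white adipocyte markers (2 above 0, 6 below, median -0.22) summed to 23.5 to 44.1 in torpor and 64.2 to 82.7 in summer, led by Psat1 and Agt at -1.58 ± 0.43 and -1.997 ± 0.42, each of which also had a probe above 0, while Hoxc8 gave 0.67 ± 0.35. The 10 skeletal muscle markers (2 above 0, 8 below, median -0.40) summed to 87.2 to 104 in torpor and 139 to 171 in summer. Most of that sum was 1 probe of Tnnc2, a troponin gene of fast muscle, whose log2 level was 6.33 in torpor and 7.10 in summer. Actn3 and Atp2a1 gave 0.97 ± 0.37 and 0.59 ± 0.62. The 2 Actn3 probes ran from -0.53 to 0.97, and the Atp2a1 probe was dim, at the 3.68th percentile of its membrane.

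The sums overlapped between the groups for immune cells (32.2 to 38.5 in torpor, 31.0 to 48.7 in summer), endothelium (5.05 to 7.54, 5.41 to 6.44), nerve (95.2 to 119, 45.2 to 171) and erythroid cells (3.03 to 9.87, 5.14 to 10.1). Adipoq, Fabp4, Plin1 and Cfd were not analysed here. The part of tissue makeup in the members' differences was not tested.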

How the data were processed

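The authors deposited linear spot intensity values for 44 columns (20 of summer and 24 of torpid animals), with the RNA labelled with 33P per the labels. The sources used here do not give the image analysis or background treatment. Each column's median is 1 when empty cells are ranked lowest. Values were taken to log2 as deposited, empty cells were left missing, and duplicates of one RNA were averaged. The difference of torpor from summer was fitted by membrane in limma 3.58.1 (R 4.3.3), with two-sided tests. A probe needed 2 animals with a value per group, and p-values were adjusted over the probes of all 4 membranes. Gene values are means over a gene's tested probes, each centred on its own mean, fitted with limma over 11553 genes. Exact permutation tests count the divisions of the 8 animals with a difference as large in size. The labels give separate animals but no other factor.

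Probes were named by the platforms' annotation, which is old (25070 probes with 1 symbol, 941 with several, 12389 with none). A gene in a list is represented by its brightest probe. Named genes were every member probe, called list genes, up to 3 genes per list of smallest p, a few fixed genes, and the 3 genes most like each member. The other Id genes were added beside Id3. The members and lists were chosen with earlier results of these data known. The fit was tested on simulated data. Animals of the same number in the 2 groups are not the same animals, and their deviations had correlations of 0.02, 0.01 and 0.01 over 34505 probes, so no pairing was used. The number of arrays limits the precision.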

Additional observations from a re-analysis of the deposited data

Results flagged for a closer look

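The Cidea probe 8730 on MA11 had 1 torpid animal far from the others: torpid animal 3 stood at -1.23 on the log2 scale, where the other 4 lay between -0.81 and -0.64. The gap was 0.712 of the whole range of the 5 animals. Of the 16 sets of torpid values examined in this way (13 probes and 3 gene means), this was the only one, and chance flags about 1 in 20. On this probe torpid animal 5 is the mean of duplicates at -1.37 and -0.25, the first of them below torpid animal 3. The SD between duplicates of this probe was 0.48, against 0.24 between animals within groups. Torpid animal 3 had no duplicate, so an error of measurement and a difference of the animal cannot be told apart.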

How the results depend on the processing

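Across all 20 alternatives for probes and 13 for genes, 0 member probes and 0 member genes were called. The differences of Bmp8b, Dio2, Ppargc1a, Elovl3, Prdm16, Esrrg probes 3845 and 5234 and Cidea probes 6916 and 7351 kept their sign in every alternative run. The filter that left out the dimmest 25% of probes removed Dio2 and Esrrg probe 4628.

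Values near 0 turned. Esrrg probe 4628 gave 0.15 with the first duplicates, 0.0486 with all columns and the animal as a random block, and -0.20 to 0.11 with 1 animal left out. Cidea probe 8730 gave -0.19, -0.0281 and -0.11 to 0.14 under the same alternatives, and -0.0554 with the replicate block. Ppargc1b gave 0.0024 with the replicate block, as a probe and as a gene. The causes were not tested.

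The number of probes called over all probes was 63 with cyclic loess, 76 with the floor, 234 without the dimmest 25%, 228 with a variance trend, 176 and 38 with the first or second duplicates, 298 with all columns, 32 with the replicate block, and 17 to 347 with 1 animal left out (347 without summer animal 1, and 45, 17, 50, 60 and 78 without torpid animals 1 to 5). With cyclic loess 46 of 63 were higher, against 98 of 117. The number of genes called was 17, and 10 with quantile normalization, 7 with cyclic loess, 28 by the brightest and 2 by the median probe, 0 with the replicate block, and 0 to 69 with 1 animal left out. The pathway lists held 0 called probes with cyclic loess, and the replicate block also ended the Adcy3 call (1.77, limma adjusted p = 0.14). The animals share only a number, so the replicate block does not pair them. The other alternatives (quantile normalization for probes, values in all 8 animals, a variance for each group, adjustment within each membrane) left the number of called probes within 1.5 times of 117.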
